A study of Arabidopsis thaliana with 4 samples.

Results

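The genes described here are 4 genes of glutathione metabolism in Arabidopsis thaliana: the glutathione reductase genes GR1 (AT3G24170) and GR (AT3G54660, also called GR2), the gene AT1G44790 (GGCT2;3) of a γ-glutamyl cyclotransferase, and the glutaredoxin gene GRXC9 (AT1G28480, which RefSeq lists as GRX480). They were taken by name from the 13356 genes that have a probe set annotated to exactly 1 gene, and each has 1 such probe set. Below, a listed gene is called measured only if it has such a probe set. The array also holds 8730 probe sets without a gene in the annotation and 503 with several. A gene not called measured may therefore still be on the array. Expression was measured with Affymetrix one-colour arrays on whole seedlings of the ecotype Columbia, 2 arrays from seedlings given GSH (reduced glutathione) for 72 hours after 15 days of growth and 2 arrays from control seedlings labelled 15 days old. How much GSH was given, and how old the control seedlings were at harvest, is not stated in the labels. If the groups differed in age at harvest, age and GSH cannot be told apart in any comparison below. The samples' free-text descriptions speak of embryos, against their source, tissue and age labels, and were not used.

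Glutathione is the main soluble thiol of plant cells and cycles between a reduced form and an oxidised disulfide. Glutathione reductases return the disulfide to the reduced form with electrons from NADPH, GR1 in the cytosol and peroxisomes and GR in chloroplasts and mitochondria. γ-Glutamyl cyclotransferases of the GGCT2 type cleave reduced glutathione in the cytosol into 5-oxoproline and cysteinylglycine, from which its amino acids are recovered. Glutaredoxins take electrons from glutathione to reduce disulfides or remove glutathione from proteins. GRXC9 belongs to the land-plant CC class, is induced by salicylic acid and binds TGA transcription factors.

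Of the 4 genes, 3 had higher transcript signals in GSH-treated seedlings than in control seedlings, and these were AT1G44790, GRXC9 and GR1 in order of size. AT1G44790 was 1.90-fold higher, GRXC9 1.59-fold and GR1 1.23-fold, while GR was 0.888-fold the control level and did not pass the test. The test was limma's moderated comparison of treated with control arrays over all 22746 probe sets that are not array controls, with Benjamini-Hochberg adjustment and a threshold of 0.05. By that rule 33.8% of all probe sets passed, 16.2% higher and 17.5% lower in treated seedlings, and the members' 3 of 4 stands beside that background. The members were chosen with earlier results of these data known, so their share cannot be read as an excess over it. In all 4 genes the treated arrays did not overlap the control arrays, which held for 65.2% of all probe sets (31.2% higher and 34% lower). Because whole seedlings were used, a change in the share of some cells and a change in the transcript per cell cannot be told apart for any of these genes.

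**Figure D1:**
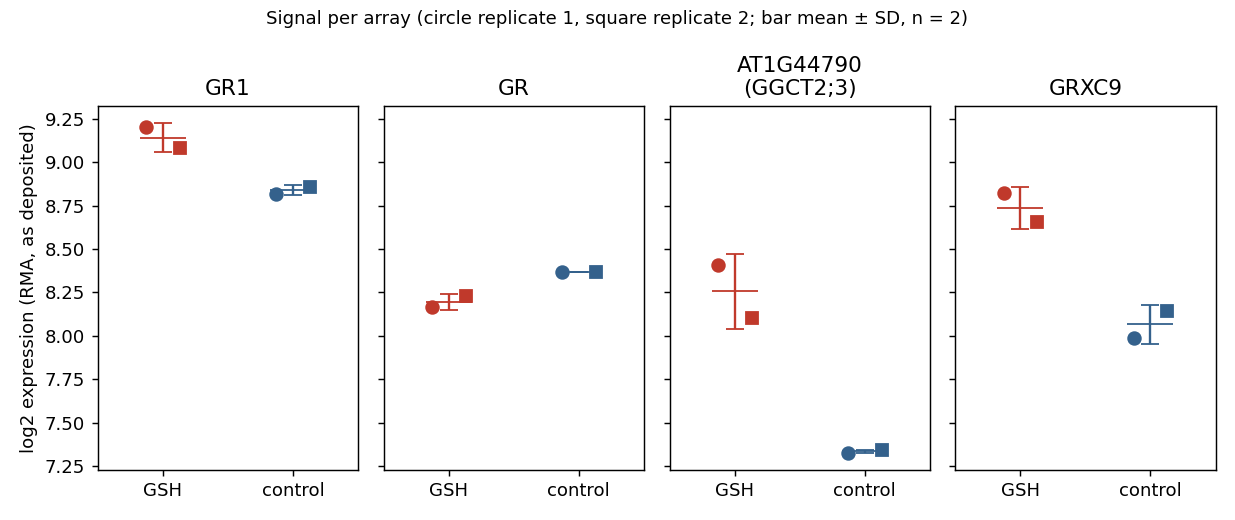
Log2 expression of GR1, GR, AT1G44790 (GGCT2;3) and GRXC9 on each array, GSH-treated on the left and control on the right of each panel, with circles for replicate 1, squares for replicate 2 and bars for the mean ± SD of 2 arrays. The groups do not overlap in any panel, and the treated arrays lie above the control arrays except for GR, where the 8.16 and 8.23 of the treated arrays lie below the 8.37 of both control arrays.

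GR1, the cytosolic and peroxisomal reductase, had log2 expression values of 9.20 and 9.08 in GSH-treated seedlings, against 8.82 and 8.86 in control seedlings. The lower treated value exceeded the higher control value by 0.22 log2 units, and the treated replicates were 0.12 apart. Means were 9.14 ± 0.09 in treated and 8.84 ± 0.03 in control seedlings (SD, n = 2 each), a difference of 0.30 ± 0.08 log2 units (SE, limma adjusted p = 0.0216) with a 95% interval of 0.12 to 0.49. Of all probe sets 69.9% differed by less than GR1 did. The call was kept without GSH replicate 2 (0.36 log2 units, limma adjusted p = 0.0307) and lost without each of the other arrays. The adjusted p by limma was 0.0971 without GSH replicate 1, 0.0909 without control replicate 1 and 0.0581 without control replicate 2, with differences of 0.24, 0.28 and 0.32.

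GR, the reductase of chloroplasts and mitochondria, had values of 8.16 and 8.23 in GSH-treated seedlings and 8.37 on both control arrays. Its control arrays were 0.0016 log2 units apart, the closest agreement among the 4 genes, and the groups were separated by 0.14. The means were 8.20 ± 0.05 in treated and 8.37 ± 0.0011 in control seedlings (SD, n = 2 each), and the difference of -0.17 ± 0.07 log2 units did not pass (limma adjusted p = 0.109). The 95% interval ran from -0.34 to -0.0046, which is 0.791-fold to 0.997-fold of the control level. Its size lay near the middle of the array, with 52.1% of probe sets changing by less.

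The reductase genes thus stood on opposite sides of zero, and their changes were compared directly within each array. The log2 signal of GR1 minus that of GR was 1.04 and 0.85 on the treated arrays, against 0.45 and 0.49 on the control arrays. Such a value depends on how bright each probe set is and has no meaning as a ratio of transcripts. Its change between groups was 0.47 log2 units, or 1.39-fold in favour of GR1, and the groups did not overlap. That lack of overlap was fixed by the values above, since both treated arrays had GR1 higher and GR lower than either control array. The exact two-sided permutation test gave p = 0.333, the smallest that it can give for 2 arrays against 2, so it could not have passed the 0.05 threshold and leaves the difference in change between the reductase genes untested.

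AT1G44790, for the cyclotransferase that breaks down glutathione, changed most. Its log2 values were 8.41 and 8.10 in GSH-treated seedlings, against 7.33 and 7.34 in control seedlings. The treated replicates were 0.31 apart and the control replicates 0.014, so most of its spread lay within the treated group, and the gap between the groups was 0.76. Means were 8.26 ± 0.22 in treated and 7.33 ± 0.01 in control seedlings (SD, n = 2 each), and the difference was 0.92 ± 0.11 log2 units (limma adjusted p = 0.00101) with a 95% interval of 0.66 to 1.18, or 1.58-fold to 2.27-fold. It ranked 1088th of 22746 by size, and 95.2% of probe sets changed by less. Leaving out an array in turn gave 0.77 to 1.08 log2 units, and each of the 4 fits passed.

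GRXC9, the salicylic acid-inducible glutaredoxin, had log2 values of 8.82 and 8.65 in GSH-treated seedlings, against 7.99 and 8.15 in control seedlings. The replicates were about equally far apart in both groups, 0.17 on the treated and 0.16 on the control arrays, and the groups were separated by 0.51. Means were 8.74 ± 0.12 in treated and 8.07 ± 0.11 in control seedlings (SD, n = 2 each). The difference of 0.67 ± 0.09 log2 units passed (limma adjusted p = 0.00195), with a 95% interval of 0.45 to 0.89, and 90.5% of probe sets changed by less. Leaving out an array in turn gave 0.59 to 0.76, and each fit passed.

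Ordered by their change, the genes ran AT1G44790, GRXC9, GR1 and GR. The change of AT1G44790 exceeded that of GRXC9 by 0.25 log2 units, and the 95% intervals of their changes overlapped. GRXC9 exceeded GR1 by 0.37, with intervals that also overlapped. In these neighbouring pairs, as in that of GR1 and GR, the within-array differences did not overlap between the groups. Neighbours are taken from the order of these same changes, so a shift between groups in each pair is built in. How often other gene pairs fail to overlap was not computed, and the lack of overlap adds nothing to the order. Each of the 3 exact permutation tests gave the p of 0.333 that is the smallest possible (also 0.333 after Benjamini-Hochberg adjustment over the 3 pairs), so the order of the changes is a description.

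**Figure D2:**
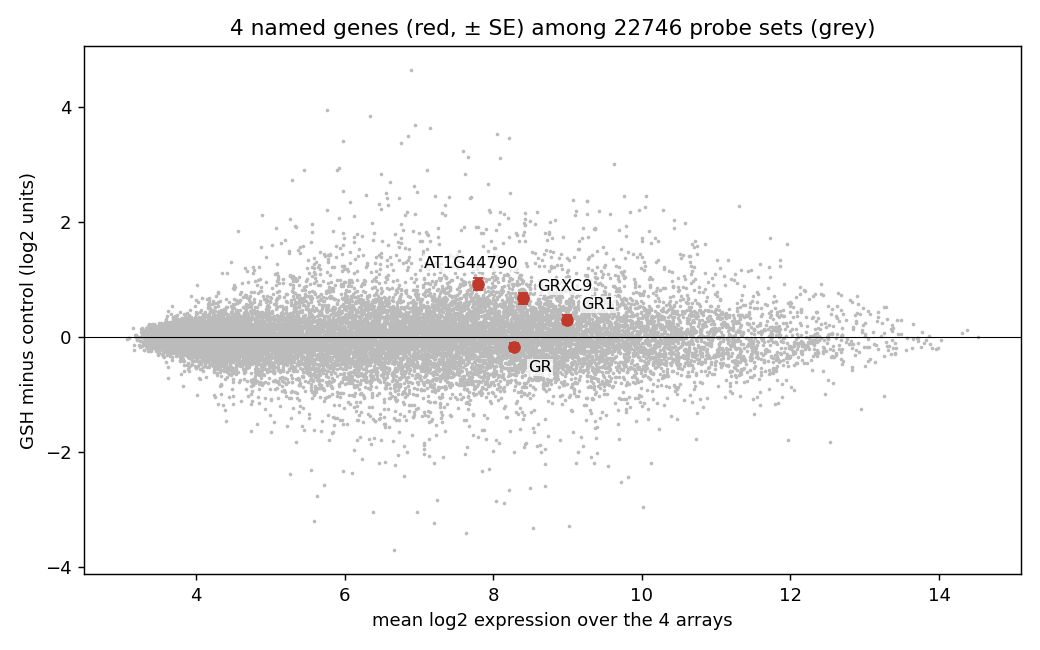
Difference between GSH-treated and control seedlings in log2 units, plotted for 22746 probe sets (grey) against their mean log2 expression over the 4 arrays, with the 4 named genes in red and bars of 1 SE, some shorter than the symbol. AT1G44790 at 0.92 lies above 97.3% of all probe sets by its difference and GRXC9 at 0.67 above 95.1%. GR1 at 0.30 lies above 85.5% and GR at -0.17 above 25.2%. Other probe sets lie far above each of the 4 genes.

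All 4 probe sets were bright, with mean values above those of 74.5% (AT1G44790) to 85.9% (GR1) of probe sets, so that none rests on a signal among the dimmest 25%. On the whole array the median difference was -0.01 log2 units. Controls added to or built into the assay also moved. Of the 27 probe sets for spiked-in Bacillus RNA 11 were lower on the treated arrays (median -0.26, range -0.87 to 0.13), as were 4 of 18 hybridization controls (median -0.16). All 5 GAPDH control probe sets had positive differences, of 0.16 to 0.35, and 3 passed, while the 6 for actin stood between 0.04 and 0.18 and did not pass. The 25S ribosomal RNA probe set fell by 2.97 log2 units. In size, differences like those of GR1, GR and GRXC9 occurred among these controls. The largest spike shift, -0.87, was close in size to the 0.92 of AT1G44790. The spike probe sets that passed were all lower, whereas the 3 GAPDH probe sets that passed were higher, as were the 3 members that passed. The part of such shifts in the members' results was not tested.

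The seedling label was set beside leaf and root markers. Of 8 markers of green tissue 4 were measured, and RCA and LHCB4.2 were lower while LHCB4.1 and LHCB4.3 did not pass, with differences of -0.42 to -0.21 log2 units. The RCA call is a weak one, since it was lost when any of the 4 arrays was left out (limma adjusted p of 0.0884 to 0.139) and with arrays centred on their medians. Their summed linear signal was 8629 and 9152 on the treated arrays, against 10804 and 10337 on the control arrays, and none was at 0. The 3 measured of 6 root markers, PYK10, EXPA7 and EXPA18, had log2 values of only 3.85 to 4.38. These values lie around 4.06, the level below which the dimmest 25% of probe sets fall. Their sums were 49.8 and 55.9 on treated and 57.5 and 55.6 on control arrays. None of the 3 passed in the fit over the 4 arrays. The sums therefore do not measure a share of root, and the root part of the label was left unchecked. The PYK10 difference ran from -0.34 to -0.16 log2 units when an array was left out. No seed or embryo marker of the list had a probe set annotated to exactly 1 gene. The difference of GR, whose protein is in part chloroplastic, stands beside the lower green tissue markers, of which 2 of 4 passed. Genes for other plastid proteins went both ways, with SAPX at 0.90 and TAPX at -0.50 log2 units. The part of green tissue in the GR result was not tested.

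The other measured genes of glutathione and thiol redox metabolism went both ways. Of 112 genes in 9 lists by function, 42 were measured, and 14 were higher, 7 lower and 21 did not pass, with a median of 0.10 log2 units against -0.01 over all probe sets. That share of 50% stands beside 33.8% of all probe sets and includes the members. Among the other 38 genes 11 were higher, 7 lower and 20 did not pass (47.4%, median 0.10). The lists were chosen with earlier results of these data known, so these shares cannot be read as an excess. The same background and limit hold for the counts of single lists below. Without GSH replicate 1 the count over the 42 was 13, 10 higher and 3 lower. No listed gene of glutathione synthesis, of glutathione transport or of the glutathione peroxidase-like family had a probe set annotated to exactly 1 gene. AT1G44790 was the 1 gene of 8 for glutathione breakdown that had one. Whether other probe sets of the array stand for the missing genes was not checked.

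**Figure D3:**
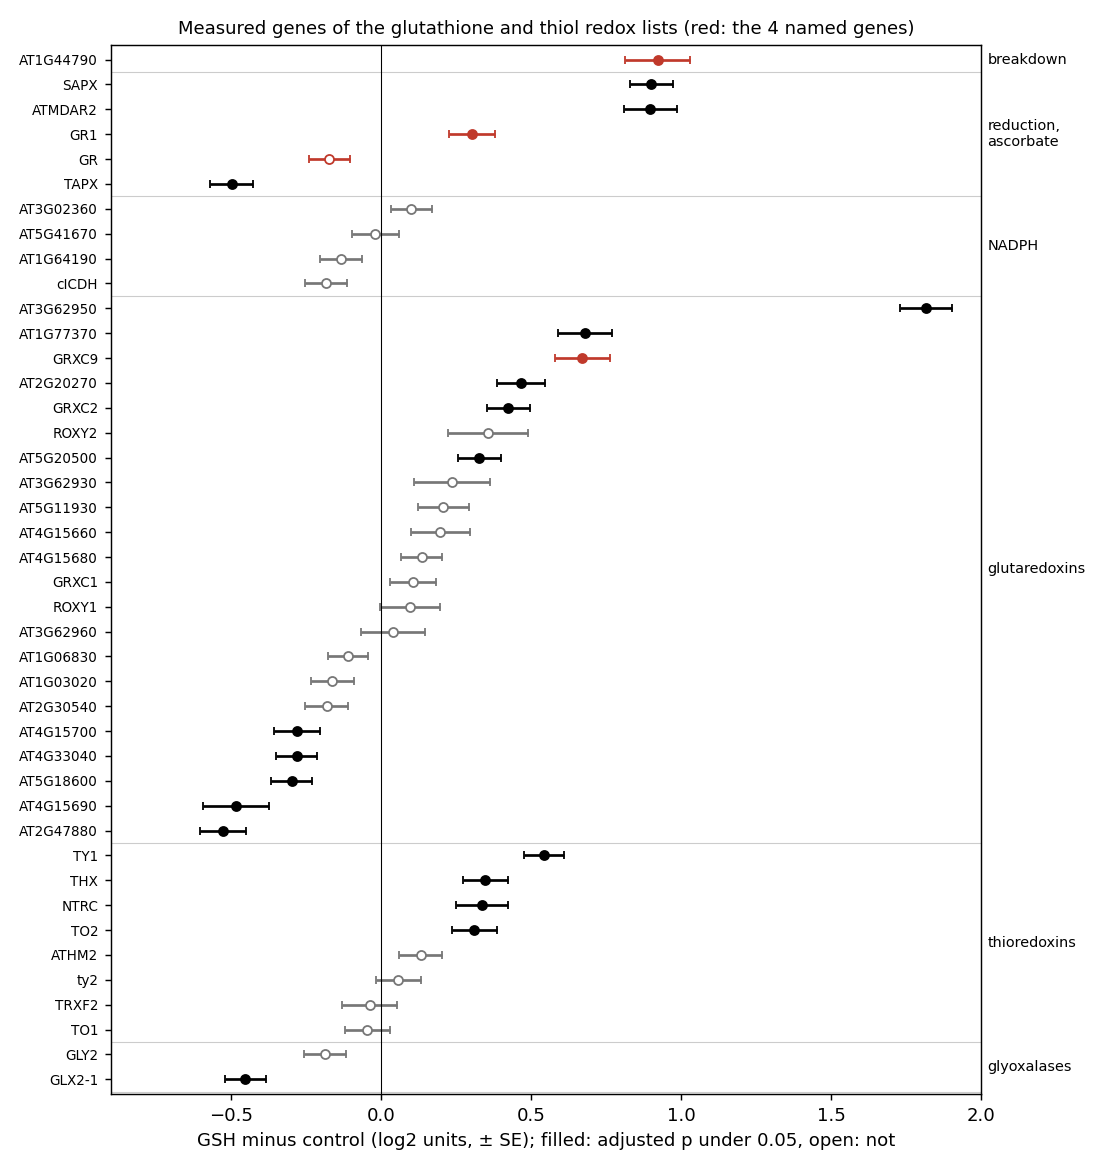
Differences between GSH-treated and control seedlings (log2 units, points with bars of 1 SE) for the 42 measured genes of the lists, grouped by function and ordered by size within a group. The 4 named genes are red, filled points passed and open points did not. Glutaredoxins spread from -0.53 to 1.82, on both sides of GRXC9 at 0.67.

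In the list that holds both reductases, which covers glutathione reduction and the ascorbate cycle that feeds it with disulfide, 5 of 17 genes were measured. SAPX, the stromal ascorbate peroxidase, had 8.62 and 8.69 in treated seedlings and 7.78 and 7.73 in control seedlings, and was higher by 0.90 ± 0.07 log2 units (limma adjusted p = 0.000203). ATMDAR2, for a monodehydroascorbate reductase, which restores ascorbate, had 9.88 and 9.95 in treated and 9.12 and 8.92 in control seedlings, a rise of 0.90 ± 0.09 (limma adjusted p = 0.000497). Both changes were about as large as that of AT1G44790. TAPX, the ascorbate peroxidase bound to thylakoids, fell by 0.50 ± 0.07 log2 units, at 6.97 and 6.89 in treated and 7.45 and 7.40 in control seedlings (limma adjusted p = 0.00238). Among the genes of this list for chloroplast proteins, SAPX thus lay above and TAPX below the control level, with GR between them. Leaving out any 1 array kept the 3 calls.

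Glutathione reductases draw on NADPH. Of 11 genes listed for its supply 4 were measured, and 0 passed by limma. The cytosolic isocitrate dehydrogenase gene cICDH stood at -0.18 ± 0.07 (limma adjusted p = 0.0919), and the other 3, entered by locus code, between -0.13 and 0.10. At an unadjusted p under 0.05, 1 of the 4 passed, and with an intensity trend in limma's variance model cICDH did.

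GRXC9 was read against its own family. Of 31 glutaredoxin genes 22 were measured, and 17 of these carry only a locus code in the tables and entered the list by that code. Of the 22, 6 were higher, 5 lower and 11 did not pass, and without GRXC9 the counts were 5, 5 and 11 of 21 (median 0.11 log2 units). The lower calls depended on single arrays: the 22 had 6 higher and 1 lower without GSH replicate 1, 6 and 2 without GSH replicate 2, 5 and 2 without control replicate 1, and 7 and 3 without control replicate 2. Of the 5 lower genes AT2G47880 was called in each of these 4 fits, and AT4G15690, AT5G18600, AT4G15700 and AT4G33040, the last 3 named after their values were seen, each lost their call in at least 2. The change of GRXC9 was the third in size among the 22. AT3G62950 rose most, with 9.64 and 9.67 in treated seedlings and 7.74 and 7.94 in control seedlings, by 1.82 ± 0.09 log2 units (limma adjusted p = 3.14e-05). AT1G77370 rose by 0.68 ± 0.09, nearly the change of GRXC9.

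GRXC2, a cytosolic glutaredoxin of the CPYC class, had 11.32 and 11.36 in treated seedlings, against 10.95 and 10.88 in control seedlings, and rose by 0.42 ± 0.07. AT2G20270 rose by 0.47 ± 0.08 and AT5G20500 by 0.33 ± 0.07, the last not without GSH replicate 1 (limma adjusted p = 0.0613) or control replicate 1 (limma adjusted p = 0.0693). AT2G47880 fell by 0.53 log2 units, at 4.23 and 4.33 in treated and 4.85 and 4.76 in control seedlings. AT4G15690 fell by 0.48 ± 0.11, which did not pass without GSH replicate 1 or control replicate 1 (limma adjusted p up to 0.0755). ROXY1 and ROXY2, CC-class glutaredoxins known for their roles in petal and anther development and named after their values were seen, stood at 0.10 ± 0.10 and 0.36 ± 0.13 and did not pass in the fit over the 4 arrays. The ROXY2 difference depended on single arrays, running from 0.15 to 0.56 log2 units when an array was left out.

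Some of the measured glutaredoxin loci lie side by side. AT3G62950 and AT3G62960 are adjacent in RefSeq, and AT3G62930 lies 1 gene further. Beside the 1.82 of AT3G62950, AT3G62960 stood at 0.04 ± 0.11 and AT3G62930 at 0.24 ± 0.13, and neither passed. The loci AT4G15680, AT4G15690 and AT4G15700 are adjacent too, at 0.14, -0.48 and -0.28 log2 units. AT4G15660, with 1 gene between it and AT4G15680, stood at 0.20 ± 0.10 and did not pass. The neighbours of AT3G62950 and AT4G15690 were chosen after their values were seen. Genes of a family can share labelled RNA between probe sets where their sequences are alike. Whether these do was not tested, so their separate values may be uncertain.

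Thioredoxins and their reductases form the other thiol reducing system beside GR1 and GR. Of 21 genes 8 were measured, 4 higher, 0 lower and 4 not past the test (median 0.22). The count of 4 was 1 without GSH replicate 1 and 1 without control replicate 2. TY1 (thioredoxin Y1) of the plastid rose by 0.54 ± 0.07, with 5.85 and 5.86 in treated and 5.31 on both control arrays. THX (thioredoxin X) rose by 0.35 ± 0.08, the NADPH-dependent plastid reductase NTRC by 0.34 ± 0.09 and TO2 (thioredoxin O2) by 0.31 ± 0.07, sizes close to that of GR1. Each of these 3 calls was lost without GSH replicate 1 and without control replicate 2, with limma adjusted p-values up to 0.0623 for THX, 0.103 for NTRC and 0.108 for TO2, and TO2 was also lost without GSH replicate 2. Of 2 measured genes of the glyoxalase 2 family, known for the glutathione-dependent removal of methylglyoxal, GLX2-1 fell by 0.45 ± 0.07 (adjusted p = 0.00286 by limma) and GLY2 stood at -0.19.

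Of 24 genes for salicylic acid signalling and TGA factors, the setting in which GRXC9 is best known, 2 were measured. SAG101, a partner of EDS1 in immunity, had 7.80 and 7.83 in treated and 8.08 and 8.14 in control seedlings, and fell by 0.29 log2 units. That call was lost without GSH replicate 1, GSH replicate 2 or control replicate 2 (limma adjusted p of at least 0.0554). The defensin gene PDF1.2, which GRXC9 is known to repress when overexpressed, stood at -0.10 ± 0.09 and did not pass, with values of 3.87 and 4.11 in treated and 4.11 and 4.06 in control seedlings that lie at the dim end of the array.

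Genes with the most similar profile were found by the distance between log2 values centred on each gene's mean, over the 4 arrays and 13512 other probe sets with 1 gene. Nearest to GR1 were AT1G69760, AT2G43560 and AT1G27290, at 0.0029 to 0.028 log2 units. Nearest to GRXC9 were AT2G22690, AT2G01460 and ANK1, at 0.010 to 0.025, and nearest to GR were AT5G26740, AT2G37650 and AT3G21170, each at 0.016. AT1G44790 had fewer close profiles, with AT3G53670 at 0.055, AT2G44380 at 0.091 and AT1G52550 at 0.099. Within 0.1 log2 units lay 780 probe sets for GR, 251 for GR1, 32 for GRXC9 and 3 for AT1G44790. With 4 arrays in 2 groups such nearness follows mostly from a like difference between the groups.

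**Figure D4:**
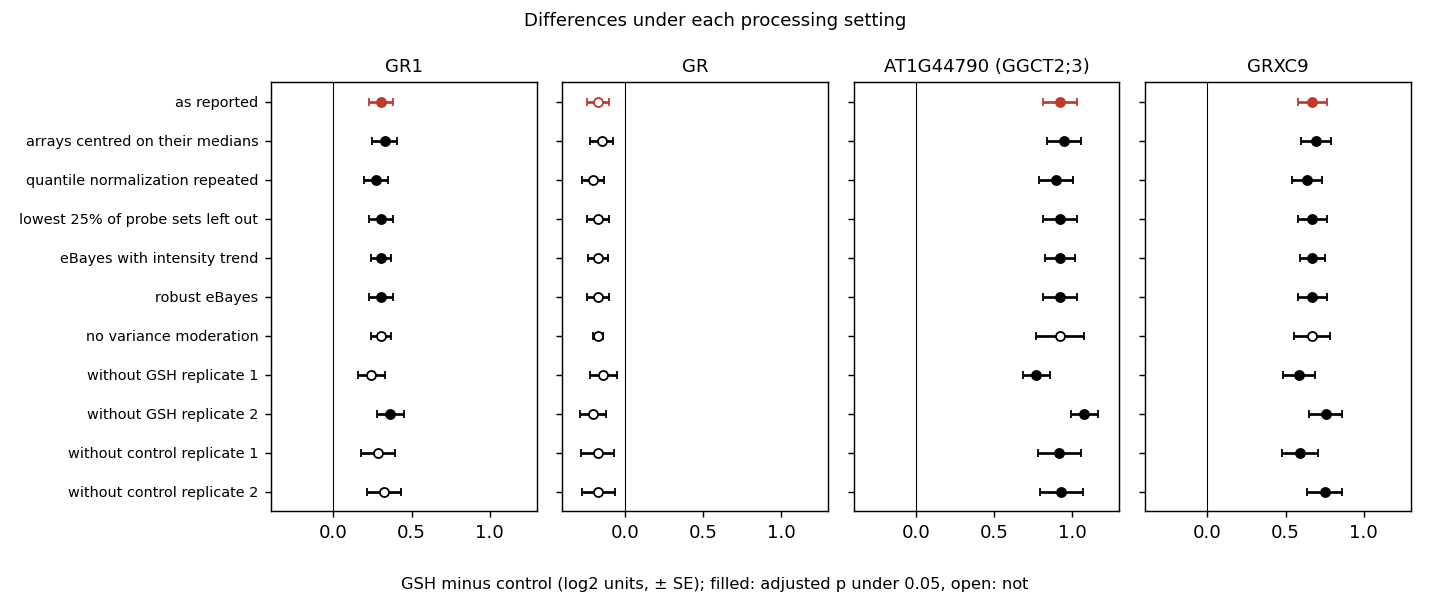
Difference between GSH-treated and control seedlings (log2 units, with bars of 1 SE) for each gene under the reported setting (red) and other settings or with 1 array left out (black), where filled points passed at an adjusted p under 0.05. The direction is the same in every row shown, AT1G44790 and GRXC9 pass in all but the fit with no variance moderation, GR1 loses its call there and in 3 of the 4 fits without an array, and GR passes in none. The fits with replicate numbers as a block are not drawn.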

How the data were processed

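The members and lists were chosen with earlier results of these data known. The deposited values are log2 expression, 1 per probe set and array, which the authors made with Affymetrix Expression Console and RMA (no versions stated), per the submitters' processing notes. RMA quantile-normalizes arrays, which hides changes shared by most transcripts and compresses bright and dim differences. RNA was Trizol-extracted and 6 µg labelled with biotin, per the labels' protocols. Values were used as deposited. Of 22810 probe sets, 64 controls were left out of tests on genes. Names came from the platform annotation, updated by gene ID to RefSeq (TAIR10.1): 13513 had 1 gene, 503 several and 8730 none in that table. Differences between treated and control arrays were tested by limma 3.58.1 (R 4.3.3, lmFit and eBayes, 2 residual degrees of freedom, prior 4.55). The code was also run on simulated data with a far smaller share of changed probe sets. That run checks the code only and does not bear on the calls reported here. Alternatives varied scaling, filtering, moderation, blocking and the arrays used. Errors of differences are moderated standard errors. Control probe sets were called in a fit over all probe sets. Titles call replicates biological, but no label states separate cultures, so p-values may reflect technical spread alone, and the number of arrays limits precision. Genes named are the members, up to 8 per list by smallest unadjusted p, and the 3 nearest profiles, and others are marked. Promoter motifs were not analysed here.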

Additional observations from a re-analysis of the deposited data

How the results depend on the processing

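For GR1, GR, AT1G44790 and GRXC9 the direction of the difference was the same under all 12 alternatives (median centring, repeated quantile normalization, the lowest 25% of probe sets left out, an intensity trend, robust moderation, no moderation, the replicate number as a block, the same with crossed numbers, and leaving out each array). Without variance moderation 1425 probe sets passed in place of 7680, 4 of the list genes in place of 21 and 0 of the 4 members in limma's fit (all 4 at an unadjusted p under 0.05), and differences of 0.30 for GR1, 0.92 for AT1G44790 and 0.67 for GRXC9 did not pass. With 2 residual degrees of freedom this fit has little power. Leaving out an array gave 6186 to 6248 calls, 2 to 3 members, 13 to 17 list genes, 0.24 to 0.36 log2 units for GR1, -0.20 to -0.14 for GR and 0.38 to 0.57 for the change of GR1 minus that of GR, and these fits assume that the lone array of a group varies like the other group. With the replicate number as a block 6235 probe sets and 2 members passed, and GR1 at 0.30 had an adjusted p of 0.0571 by limma. That number pairs nothing in the labels, and same-numbered arrays deviated oppositely across probe sets (r = -0.103), so a crossed pairing was added after the data were seen, with 6898 probe sets, 3 members and 19 list genes called. Uncalled genes near 0 turned sign: AT5G41670 stood at 0.0044 with median centring, and without an array the ranges were -0.088 to 0.050 for AT5G41670, -0.033 to 0.23 for ROXY1, -0.10 to 0.18 for AT3G62960, -0.14 to 0.068 for TRXF2, -0.10 to 0.011 for TO1 and -0.22 to 0.021 for PDF1.2. No member had a further probe set, so that alternative could not be run. The causes were not tested.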
